A study of Mus musculus with 18 samples.

Results

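Regulatory T cell genes were followed in 18 mouse tumours through 5 genes chosen by symbol, Foxp3, Il2ra, Ikzf2, Ccr8 and Ikzf4, which were all found among the 26538 genes of the deposited table. The gene set against them was Cd8a, which encodes a chain of the CD8 co-receptor of cytotoxic T cells. The tumours had not themselves been ablated: the ablation was given to a different tumour of the same animal. There were 6 groups of 3 tumours, namely cryo-thermal therapy with anti-PD-1, cryo-thermal therapy, radiofrequency ablation with anti-PD-1, radiofrequency ablation, cryoablation with anti-PD-1, and cryoablation. Cryoablation kills tissue by cold and radiofrequency ablation by heat, and cryo-thermal therapy uses both. Anti-PD-1 is an antibody against an inhibitory receptor of T cells. Every group had an ablation, and a group without one was not analysed here. The sources used here give no tumour line, mouse strain, age, antibody dose or collection day. The labels number 3 tumours a group without stating that each came from its own animal, so p-values measure the spread between these tumours.

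Regulatory T cells are CD4+ T cells that restrain other lymphocytes, and in tumours they often accompany cytotoxic T cells. FOXP3 is the transcription factor that defines them and keeps their programme active. They take up interleukin-2 through CD25, the high-affinity receptor chain that Il2ra encodes, and interleukin-2 signals through STAT5 sustain Foxp3 transcription. Helios, from Ikzf2, and Eos, from Ikzf4, are Ikaros family transcription factors found in these cells, and Eos acts as a partner of FOXP3. CCR8 is a chemokine receptor of regulatory T cells inside tumours and of some skin-homing and type 2 T cells.

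Foxp3, Il2ra and Ccr8 were the members that passed the main test in a comparison below, and their promoter sequences are shown here, from 250 bases before to 50 bases after the start in RefSeq for GRCm38.p6. Sequences were present for 3 of the 5 members. Foxp3 had 2 starts, at chrX:7579426-7579725 and chrX:7580233-7580532, Il2ra lay at chr2:11642542-11642841 and Ccr8 at chr9:120091883-120092182, all on the plus strand. Each is written 5′ to 3′, and capitals mark a match to 1 of 6 motifs searched on both strands.
Foxp3 first start: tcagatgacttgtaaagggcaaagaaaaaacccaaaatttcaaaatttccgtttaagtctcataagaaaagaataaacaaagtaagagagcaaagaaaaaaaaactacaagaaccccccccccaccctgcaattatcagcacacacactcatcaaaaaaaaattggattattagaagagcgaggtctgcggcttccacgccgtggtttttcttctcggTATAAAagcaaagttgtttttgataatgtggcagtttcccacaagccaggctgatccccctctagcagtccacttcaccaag
Foxp3 second start: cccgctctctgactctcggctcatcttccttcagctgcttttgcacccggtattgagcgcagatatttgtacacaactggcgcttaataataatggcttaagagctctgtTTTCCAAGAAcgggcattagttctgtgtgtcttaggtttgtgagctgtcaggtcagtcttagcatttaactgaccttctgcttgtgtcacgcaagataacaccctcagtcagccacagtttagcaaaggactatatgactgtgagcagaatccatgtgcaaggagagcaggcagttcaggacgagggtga
Il2ra: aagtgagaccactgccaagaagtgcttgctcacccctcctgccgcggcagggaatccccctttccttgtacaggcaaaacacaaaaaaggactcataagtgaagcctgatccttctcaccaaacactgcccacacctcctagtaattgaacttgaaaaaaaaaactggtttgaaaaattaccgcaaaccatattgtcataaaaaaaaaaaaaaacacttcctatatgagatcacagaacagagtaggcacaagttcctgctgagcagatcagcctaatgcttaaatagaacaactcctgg
Ccr8: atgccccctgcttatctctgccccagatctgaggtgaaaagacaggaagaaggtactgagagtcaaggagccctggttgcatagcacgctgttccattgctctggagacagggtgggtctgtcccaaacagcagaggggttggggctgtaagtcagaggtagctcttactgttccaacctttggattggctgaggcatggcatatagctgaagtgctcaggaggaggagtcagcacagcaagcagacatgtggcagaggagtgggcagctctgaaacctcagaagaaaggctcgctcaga
The motifs were TTCNNNGAA for STAT factors, TGTTTAC for forkhead factors, TGGAAA for NFAT, TGTGGT for RUNX factors, TGANTCA for AP-1 and TATAAA for the TATA box. The second Foxp3 start held a STAT match from base 112, which overlapped a reverse-strand NFAT match from base 111. The first Foxp3 start held TATAAA from base 219, and the Il2ra and Ccr8 windows held 0 of the 6 motifs. Of all 32851 promoters of the same length, 8.3% held the STAT letters, 3.65% the forkhead letters, 21.4% the NFAT letters, 16.8% the RUNX letters, 7.81% the AP-1 letters and 13.6% the TATA box. The matches describe these letters and nothing was measured about binding.

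Levels are given as FPKM, the authors' fragment counts scaled by gene length and library size. All 5 members were scarce. The whole fragments behind each FPKM value could be recovered for 23160 of 23167 genes within a tolerance of 0.02 fragments, and gave 36512916 to 37993989 fragments per tumour, so depth was close to equal. In tumour RNA, fewer cells of a type and less RNA per cell cannot be told apart. Other cell types differed between groups as well. Summed FPKM of 8 pan-T-cell markers was 10.3 to 34.1 after cryo-thermal therapy and 2.38 to 3.2 after cryoablation. Red blood cell genes ran the other way, at 23.6 to 210 summed FPKM after cryo-thermal therapy and 557 to 772 after cryoablation. Cryo-thermal therapy tumours 1 and 2 had the most B and plasma cell RNA, with 6.5 and 5.3 summed FPKM over 6 markers, against 1.16 in tumour 3 of that group. Keratinocyte and hair follicle RNA was abundant in cryo-thermal therapy with anti-PD-1 tumour 1, at 404 summed FPKM, and in cryoablation with anti-PD-1 tumours 1 and 2, at 196 and 217.

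Foxp3 had its lowest group means after either single ablation alone. It was 0.536, 0.442 and 0.296 FPKM after cryo-thermal therapy with anti-PD-1, and 0.694, 0.733 and 0.174 after cryo-thermal therapy alone. After radiofrequency ablation with anti-PD-1 it was 0.516, 0.361 and 0.754 FPKM, and after radiofrequency ablation alone 0.145, 0.128 and 0.127. Cryoablation with anti-PD-1 gave 0.599, 0.283 and 0.145 FPKM, and cryoablation alone 0.0532, 0.155 and 0.0739. The group means ran, from low to high, cryoablation 0.0941, radiofrequency ablation 0.133, cryoablation with anti-PD-1 0.342, cryo-thermal therapy with anti-PD-1 0.425, cryo-thermal therapy 0.534 and radiofrequency ablation with anti-PD-1 0.543. Neighbours in that order overlapped in their single tumours, and the third cryo-thermal therapy tumour lay close to the radiofrequency ablation tumours. The fragments behind these values ran from 8 in a cryoablation tumour to 112 in a radiofrequency ablation with anti-PD-1 tumour. Foxp3 overlaps Flicr on its own strand and Ppp1r3f and Ccdc22 on the other in the reference annotation, and whether counting used strand is not given, so reads from the shared stretches cannot be told apart.

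Il2ra had its highest level after cryo-thermal therapy with anti-PD-1, with 1.21, 1.33 and 1.18 FPKM. It was 0.842, 0.996 and 0.681 FPKM after cryo-thermal therapy, 0.760, 0.553 and 1.25 after radiofrequency ablation with anti-PD-1, and 0.410, 0.550 and 0.160 after radiofrequency ablation. Cryoablation with anti-PD-1 gave 0.508, 0.382 and 0.369 FPKM, and cryoablation 0.171, 0.162 and 0.161. The 3 cryoablation tumours were almost alike and, with 1 radiofrequency ablation tumour, the lowest of the series. CD25 also appears on activated effector T cells, so Il2ra RNA is not particular to regulatory T cells.

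Ccr8 gave 0.427, 0.624 and 0.801 FPKM after cryo-thermal therapy with anti-PD-1 and 0.778, 0.427 and 0.136 after cryo-thermal therapy. It was 0.364, 0.446 and 0.434 FPKM after radiofrequency ablation with anti-PD-1 and 0.0449, 0.0229 and 0.226 after radiofrequency ablation. Cryoablation with anti-PD-1 gave 0.389, 0.137 and 0.180 FPKM and cryoablation 0, 0.0459 and 0.0228. These are few fragments: at most 35 in any tumour, and 0, 2 and 1 in the cryoablation tumours. The tumour with 0 fragments allows up to 0.0682 FPKM, the level of 3 fragments, for counting error only.

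Ikzf2 was flat across the series. Its group means were 0.819 FPKM after cryo-thermal therapy with anti-PD-1, 0.802 after cryo-thermal therapy, 0.715 after radiofrequency ablation with anti-PD-1, 0.695 after radiofrequency ablation, 0.732 after cryoablation with anti-PD-1 and 0.751 after cryoablation. Single tumours ran from 0.531 to 0.892 FPKM, on 221 to 362 fragments, so it rested on more fragments than Foxp3 in every tumour. In the cryoablation tumours Ikzf2 was 241% to 546% of Cd8a by FPKM, where Foxp3 was 26.6% to 63.2%. Which cells carried the Ikzf2 RNA was not tested, so its flat level need not be that of regulatory T cells. Ikzf4 was the scarcest member, at 0.127 to 0.133 FPKM after cryo-thermal therapy with anti-PD-1, 0.0521 to 0.210 after cryo-thermal therapy, 0.0907 to 0.0967 after radiofrequency ablation with anti-PD-1, 0.0301 to 0.0922 after radiofrequency ablation, 0.0488 to 0.119 after cryoablation with anti-PD-1 and 0.0136 to 0.0221 after cryoablation. The cryoablation tumours held 5, 5 and 8 Ikzf4 fragments. Its mean over the series was under the 0.1 FPKM minimum of the main fit, so 4 of the 5 members were tested there.

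Cd8a was highest in the cryo-thermal groups. It was 4.72, 5.93 and 6.31 FPKM after cryo-thermal therapy with anti-PD-1 and 5.20, 3.48 and 1.95 after cryo-thermal therapy. Radiofrequency ablation with anti-PD-1 gave 1.36, 0.609 and 1.41 FPKM, and radiofrequency ablation 0.771, 1.67 and 0.744. After cryoablation with anti-PD-1 it was 3.09, 0.735 and 0.381 FPKM, and after cryoablation 0.15, 0.246 and 0.278. All 6 tumours of the cryo-thermal groups exceeded all radiofrequency tumours, and 1 cryoablation with anti-PD-1 tumour fell within the cryo-thermal range.

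**Figure D1:**
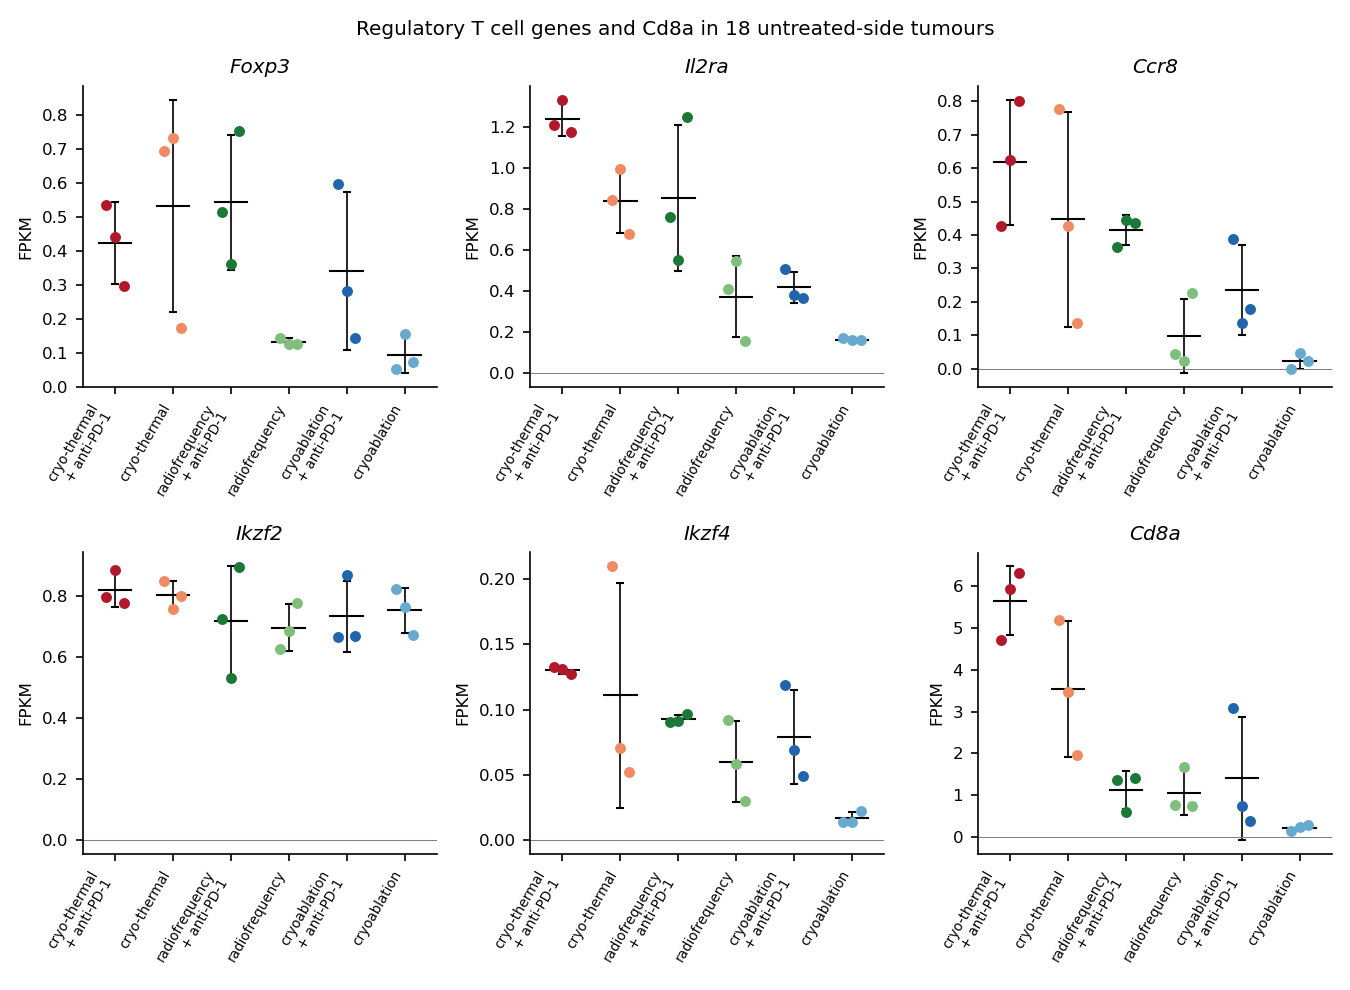
FPKM (vertical axis) of the 5 regulatory T cell genes and Cd8a in each of the 6 groups (horizontal axis); points are tumours, the line is the mean and the bar the SD of 3 tumours. Ikzf2 stays between 0.531 and 0.892 FPKM in all tumours. Foxp3, Il2ra and Ccr8 have their lowest group means after cryoablation and radiofrequency ablation without antibody, and single tumours of these groups overlap those of other groups.

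Without the antibody, cryo-thermal therapy was set against cryoablation. Foxp3, Il2ra and Ccr8 were higher after cryo-thermal therapy, with all 3 of its tumours above all cryoablation tumours, a separation that 17.4% of the 15187 genes tested shared. Mean Foxp3 was 5.67 times as high and mean Il2ra 5.1 times as high, beside 15.8 times for Cd8a. Ikzf2 did not pass, at a ratio of means of 1.07. On the log2(FPKM + 1) scale, which understates the change of low genes, limma gave Foxp3 a difference of 0.47 ± 0.14 (SE, adjusted p = 0.0468), Il2ra 0.66 ± 0.12 (adjusted p = 0.00649), Ccr8 0.48 ± 0.13 (adjusted p = 0.0314) and Ikzf2 0.04 ± 0.08 (adjusted p = 0.764). Cd8a differed by 1.83 ± 0.34 (adjusted p = 0.00649). So 3 of the 4 members tested passed as higher, where 6.95% of all genes did. The members' median log2 difference was 0.47, against 0 for all genes.

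The Foxp3 and Ccr8 calls were close to the threshold. Leaving out any single tumour of either group except cryo-thermal therapy tumour 3 left Il2ra as the 1 member past it. Without cryo-thermal therapy tumour 1, Foxp3 differed by 0.38 (adjusted p = 0.19) and Ccr8 by 0.32 (adjusted p = 0.158), and without tumour 2 Foxp3 differed by 0.37 (adjusted p = 0.178) and Ccr8 by 0.48 (adjusted p = 0.0893). Dropping cryoablation tumours 1, 2 or 3 gave Foxp3 adjusted p-values of 0.146, 0.0689 and 0.113, and Ccr8 ones of 0.104, 0.0598 and 0.0775. With both of the tumours rich in B and plasma cell RNA left out, which leaves 1 cryo-thermal therapy tumour assumed to vary like the other groups, 0 members passed and the differences were 0.10 for Foxp3, 0.53 for Il2ra and 0.15 for Ccr8. With the mean level of the CD3 chains Cd3d, Cd3e and Cd3g as a covariate, 0 members passed: the difference was -0.06 for Foxp3, 0.37 for Il2ra and 0.08 for Ccr8, and it was 0.22 for Cd8a (adjusted p = 0.999 for each). With the red blood cell genes as a covariate the differences were 0.32 for Foxp3 (adjusted p = 0.55), 0.45 for Il2ra (adjusted p = 0.347), 0.36 for Ccr8 (adjusted p = 0.471) and 1.17 for Cd8a (adjusted p = 0.349), so 0 members passed there too. The part of that RNA in the result was not tested further.

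A test on the recovered fragments, limma voom, was added after the values had been seen, and its log2 ratios are not compressed at low levels. For cryo-thermal therapy against cryoablation it gave Foxp3 2.35 ± 0.74 (SE, adjusted p = 0.0473), Il2ra 2.32 ± 0.45 (adjusted p = 0.00961), Ikzf4 2.41 ± 0.64 (adjusted p = 0.0242) and Ikzf2 0.10 ± 0.17 (adjusted p = 0.732), where 7.08% of the genes in that test were called higher. Cd8a differed by 3.89 ± 0.87 on that scale (adjusted p = 0.013). Ccr8 passed as well, at 3.72 ± 0.90 (adjusted p = 0.0165), a size that depends on the prior count because the cryoablation tumours held 3 fragments in all. The 59 Ccr8 fragments after cryo-thermal therapy over those 3 give 19.6 times at equal depth, with an exact 95% counting interval of 6.38 to 97.7. Ikzf4 did not pass with the low-value filter removed from the main fit (0.13 ± 0.04, adjusted p = 0.0929).

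Set against radiofrequency ablation, cryo-thermal therapy gave 0 of 4 members past the threshold with limma, and 0.00658% of all genes passed as higher. At an unadjusted p under 0.05, 3 members passed, as did 12.6% of all genes in either direction, and voom called 0 members. Foxp3 differed by 0.41 ± 0.14 (adjusted p = 0.297), Il2ra by 0.43 ± 0.12 (adjusted p = 0.286), and Cd8a by 1.10 ± 0.34 (adjusted p = 0.286). Off that compressed scale Foxp3 and Cd8a changed alike, with means 4 and 3.34 times as high. Voom log2 ratios were 1.72 ± 0.67 for Foxp3 (SE, adjusted p = 0.319) and 1.73 ± 0.54 for Cd8a (adjusted p = 0.29). Foxp3 and Il2ra were higher in every cryo-thermal therapy tumour than in any radiofrequency ablation tumour, as were 7.99% of all genes. Leaving out cryo-thermal therapy tumour 3, which had the lowest Foxp3 and Cd8a of its group, gave 2 members past the threshold. The share of all genes called in that fit is not given here, so nothing is read from that count. For radiofrequency ablation against cryoablation, 0 members passed with limma, at an unadjusted p under 0.05 (13.9% of all genes) or with voom, and 0.00658% of genes were called higher; Foxp3 differed by 0.05 ± 0.14 (adjusted p = 0.914).

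With anti-PD-1 in both arms, cryo-thermal therapy was set against each single ablation. Against cryoablation with anti-PD-1, Il2ra was the 1 member of 4 that passed, at 0.66 ± 0.12 (adjusted p = 0.0162), where 2.79% of all genes were called higher. Its mean was 2.95 times as high. Foxp3 differed by 0.10 ± 0.14 (adjusted p = 0.776) and Ccr8 by 0.39 ± 0.13 (adjusted p = 0.119), while Cd8a passed at 1.63 ± 0.34 (adjusted p = 0.023). Leaving out cryo-thermal therapy with anti-PD-1 tumour 2 or 3, or cryoablation with anti-PD-1 tumour 2 or 3, lost the Il2ra call, with adjusted p-values of 0.0837, 0.0739, 0.0893 and 0.0785 and differences of 0.63, 0.68, 0.64 and 0.63 in that order. The same 4 omissions gave Cd8a adjusted p-values of 0.106, 0.106, 0.116 and 0.111. Without the 3 tumours rich in hair follicle RNA the Il2ra difference was 0.72 (adjusted p = 0.0886).

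Against radiofrequency ablation with anti-PD-1, Cd8a and Foxp3 parted. Cd8a passed, at 1.66 ± 0.34 (adjusted p = 0.0361) and a mean 5.02 times as high. Foxp3 did not, at -0.11 ± 0.14 (adjusted p = 0.764) and a ratio of means of 0.782. Of the 4 members 0 passed with limma, where 0.955% of all genes were called higher, and 0 with voom. At an unadjusted p under 0.05 there was 1 member, beside 16.5% of all genes. Il2ra differed by 0.29 ± 0.12 (adjusted p = 0.246) and Ccr8 by 0.19 ± 0.13 (adjusted p = 0.521). On the recovered fragments the log2 ratios were -0.32 ± 0.51 for Foxp3 (SE, adjusted p = 0.815) and 2.42 ± 0.50 for Cd8a (adjusted p = 0.0355). The Cd8a call was lost on leaving out cryo-thermal therapy with anti-PD-1 tumour 2 or 3 or any radiofrequency ablation with anti-PD-1 tumour, with adjusted p-values of 0.143, 0.128, 0.055, 0.134 and 0.0602. Between the single ablations with antibody, radiofrequency over cryoablation, 0 members passed with limma, 1 at an unadjusted p under 0.05 (5.88% of all genes) and 0 with voom, and 0% of genes were called higher; Foxp3 differed by 0.21 ± 0.14 (adjusted p = 0.88).

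**Figure D2:**
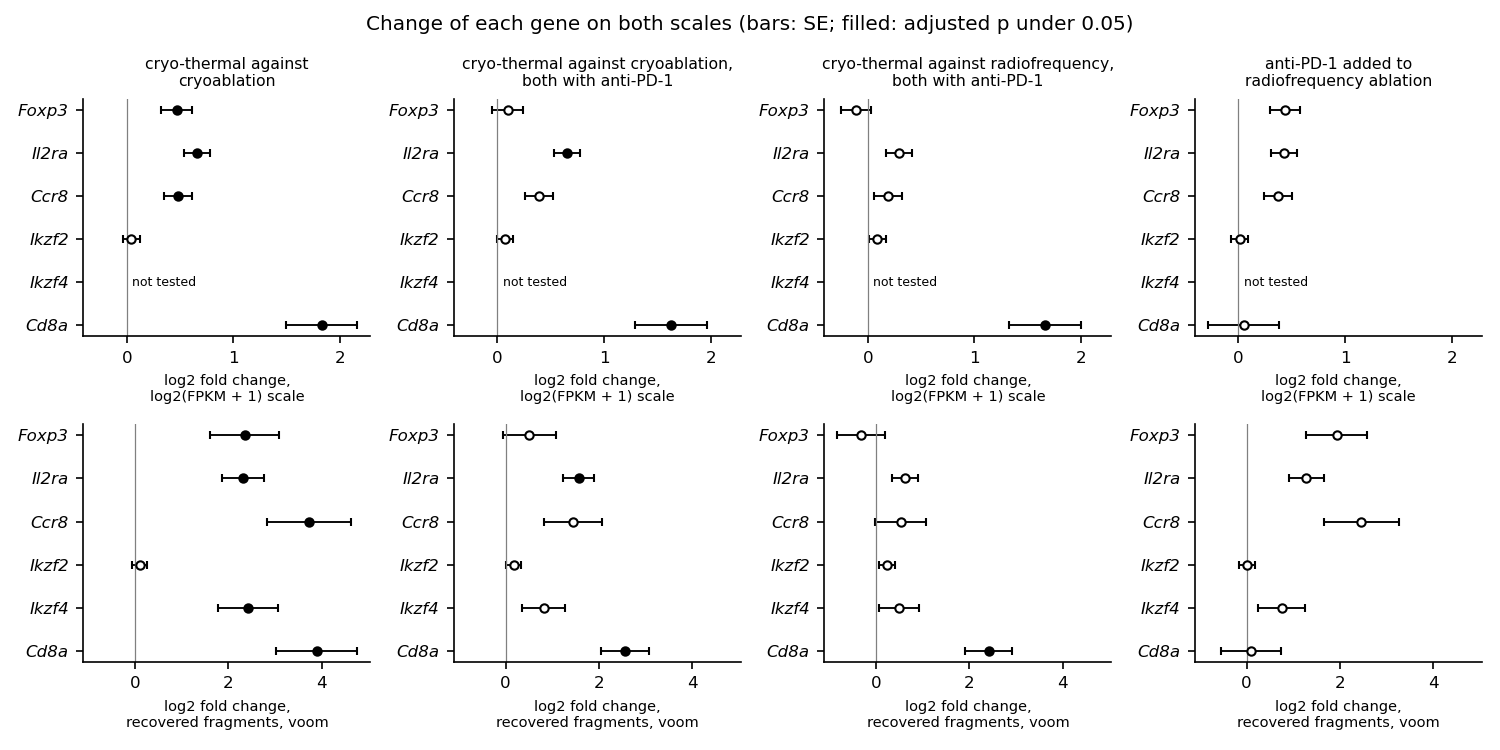
Log2 difference (horizontal axis, bars SE) of each gene in 4 comparisons, on the log2(FPKM + 1) scale (upper row) and on recovered fragments (lower row); filled points have an adjusted p under 0.05. In cryo-thermal therapy with anti-PD-1 against radiofrequency ablation with anti-PD-1, Cd8a lies at 1.66 and Foxp3 at -0.11 on the upper scale; Ikzf4 was tested on the lower scale.

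The tumours of both cryo-thermal groups, with and without antibody, were also set against the mean of the other 4 groups. Il2ra (0.51 ± 0.07, adjusted p = 0.00173) and Ccr8 (0.36 ± 0.08, adjusted p = 0.0105) were higher, 2 of 4 members where 9.74% of genes were called higher. Foxp3 differed by 0.22 ± 0.09 (adjusted p = 0.109) and Cd8a by 1.56 ± 0.21 (adjusted p = 0.00147). On recovered fragments Foxp3 differed by 1.06 ± 0.36 (adjusted p = 0.0567) and Ikzf4 by 1.11 ± 0.30 (adjusted p = 0.0199), where 10.3% of genes were called higher. Without cryo-thermal therapy tumours 1 and 2, Il2ra differed by 0.45 (adjusted p = 0.092) and Ccr8 by 0.20 (adjusted p = 0.288) in the main fit, and Cd8a by 1.28 (adjusted p = 0.0712).

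The antibody was followed within each ablation. In radiofrequency ablation with anti-PD-1 tumours, Foxp3, Il2ra and Ccr8 lay above all radiofrequency ablation tumours, as did 7.61% of all genes, while Cd8a overlapped. For Il2ra the gap was small, at 0.553 FPKM in the lowest tumour with antibody against 0.550 in the highest without it. The ratios of means were 4.08 for Foxp3, 2.29 for Il2ra, 4.23 for Ccr8 and 1.06 for Cd8a. Of the 4 members tested 0 passed with limma, where 0.0395% of all genes were called higher: Foxp3 differed by 0.44 ± 0.14 (adjusted p = 0.281), Il2ra by 0.43 ± 0.12 (adjusted p = 0.231), Ccr8 by 0.37 ± 0.13 (adjusted p = 0.327) and Cd8a by 0.05 ± 0.34 (adjusted p = 0.974). Those 3 members had unadjusted p-values of 0.00835, 0.00318 and 0.0141, where 10.7% of all genes had one under 0.05, and voom called 0 of them. Gene by gene relative to Cd8a on recovered fragments, Foxp3 differed by 1.84 ± 0.80 (adjusted p = 1).

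Cryoablation with anti-PD-1 against cryoablation gave 0 members past the threshold with limma, where 1.33% of genes were called higher, and 0 with voom. At an unadjusted p under 0.05 there was 1 of 4 members, near the 22.4% of all genes. Foxp3 differed by 0.28 ± 0.14 (adjusted p = 0.264), Il2ra by 0.28 ± 0.12 (adjusted p = 0.186) and Cd8a by 0.81 ± 0.34 (adjusted p = 0.176). Foxp3 and Cd8a were both highest in the same cryoablation with anti-PD-1 tumour, the first. Cryo-thermal therapy with anti-PD-1 against cryo-thermal therapy also gave 0 with limma, 1 at an unadjusted p under 0.05 (12.3% of all genes) and 0 with voom, with 0.263% of genes called higher, and Foxp3 differed by -0.09 ± 0.14 (adjusted p = 0.844). Averaged over the 3 ablations, anti-PD-1 went with higher Il2ra (0.33 ± 0.07, adjusted p = 0.0142) and Ccr8 (0.27 ± 0.08, adjusted p = 0.0439), 2 of 4 members where 4.17% of genes were called higher. Foxp3 differed by 0.21 ± 0.08 (adjusted p = 0.124) and Cd8a by 0.49 ± 0.19 (adjusted p = 0.125). On recovered fragments voom gave Foxp3 1.19 ± 0.38 (SE, adjusted p = 0.0633) and Cd8a 0.99 ± 0.40 (adjusted p = 0.128). It gave Il2ra 1.06 ± 0.22 (adjusted p = 0.0134), Ccr8 2.06 ± 0.45 (adjusted p = 0.0146) and Ikzf4 1.12 ± 0.31 (adjusted p = 0.0376), and Ikzf2 did not pass (adjusted p = 0.997). The share of all genes that voom called in this average is not given here, so nothing is read from the number of members it called. In the main fit the Ccr8 call was lost on leaving out any 1 of 14 of the 18 tumours (adjusted p from 0.0555 to 0.0901), and with the low-value filter removed (adjusted p = 0.0806). Without the 3 tumours rich in hair follicle RNA neither call held, at 0.32 for Il2ra (adjusted p = 0.0973) and 0.28 for Ccr8 (adjusted p = 0.121). With the red blood cell genes as a covariate the differences were 0.25 for Il2ra (adjusted p = 0.146) and 0.23 for Ccr8 (adjusted p = 0.253), and with the CD3 level 0.24 (adjusted p = 0.192) and 0.14 (adjusted p = 0.453).

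The antibody's effect was then compared between ablations. The Foxp3 effect in cryo-thermal therapy minus that in radiofrequency ablation was -0.53 ± 0.20 (adjusted p = 0.598), and minus that in cryoablation -0.37 ± 0.20 (adjusted p = 0.476). Neither passed with limma or voom, nor did any other member, and 0% and 0.125% of genes were called higher. Foxp3 in the first of these was the 1 member at an unadjusted p under 0.05, which 7.21% of all genes had there and 12.6% in the second. A difference in the antibody's effect on Foxp3 between ablations was therefore not shown.

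To set Foxp3 against Cd8a within a tumour, their FPKM values were divided. Foxp3 came to 11.3%, 7.45% and 4.69% of Cd8a after cryo-thermal therapy with anti-PD-1 and to 13.3%, 21.1% and 8.89% after cryo-thermal therapy. It was 37.9%, 59.2% and 53.4% of Cd8a after radiofrequency ablation with anti-PD-1 and 18.9%, 7.65% and 17% after radiofrequency ablation. Cryoablation with anti-PD-1 tumours gave 19.4%, 38.5% and 38.1%, and cryoablation tumours 35.4%, 63.2% and 26.6%. With antibody, the 3 cryo-thermal tumours were all below the 6 tumours of the single ablations. Without it, the second radiofrequency ablation tumour lay below all 3 cryo-thermal therapy tumours.

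On the log2 ratio with 0.1 FPKM added to each gene, cryo-thermal therapy with anti-PD-1 averaged -3.47 ± 0.55 (SD, n = 3) and both single ablations with anti-PD-1 -1.16 ± 0.55 (n = 6). The difference of -2.31 had p = 0.0238 in an exact 2-sided permutation test, the smallest that 3 against 6 can give, and 0.0357 adjusted over the 6 ratio tests. Such a ratio carries Cd8a's own change: mean Cd8a was 4.03 times that of cryoablation and 5.02 times that of radiofrequency ablation, all with anti-PD-1. Any gene that did not rise with Cd8a would also give a lower ratio. The share of all genes with such a difference was not counted, here or for the CD3 ratio below. Without antibody, cryo-thermal therapy averaged -2.58 ± 0.42 and the single ablations -1.49 ± 0.93, a difference of -1.09 (exact permutation p = 0.119). With 1 tumour left out at a time that value ran from -1.385, without the second radiofrequency ablation tumour, to -0.881, with exact permutation p from 0.0357 to 0.286. The pooled single ablations were not alike: Foxp3 averaged 14.5% of Cd8a after radiofrequency ablation and 41.7% after cryoablation, beside 14.4% after cryo-thermal therapy. Over all 18 tumours the mean log2 ratio was -3.03 ± 0.65 in the 6 cryo-thermal tumours and -1.33 ± 0.75 in the other 12. The difference of -1.70 (exact permutation p = 0.00108, adjusted 0.00646) stayed between -1.89 and -1.50 when any 1 tumour was left out. Cd8a itself differed by 1.56 ± 0.21 (SE) in this comparison on the log2(FPKM + 1) scale. The ratio carries that change too, so its p-value does not show a change particular to Foxp3.

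Against the mean of Cd3d, Cd3e and Cd3g, which all T cells carry, the Foxp3 ratio again had its lowest group mean, 6.97% ± 1.93 (SD, n = 3), after cryo-thermal therapy with anti-PD-1. Foxp3 was 4.78% to 8.45% of the CD3 mean after cryo-thermal therapy with anti-PD-1, 8.78% to 19.6% after cryo-thermal therapy, 28.7% to 29.8% after radiofrequency ablation with anti-PD-1, 5.42% to 19.1% after radiofrequency ablation, 15.6% to 23.4% after cryoablation with anti-PD-1 and 14.4% to 28.7% after cryoablation. The log2 difference was -1.76 with antibody (exact permutation p = 0.0238, adjusted 0.0357), -0.65 without it (exact permutation p = 0.286) and -1.21 over all tumours (exact permutation p = 0.0028, adjusted 0.0084). Against Cd4, which regulatory and helper T cells share, Foxp3 came to 16.3% to 33.9% after cryo-thermal therapy with anti-PD-1, 38.4% to 65.8% after cryo-thermal therapy, 35.6% to 77.3% after radiofrequency ablation with anti-PD-1, 20.7% to 62.7% after radiofrequency ablation, 13.7% to 50.8% after cryoablation with anti-PD-1 and 40.5% to 65.5% after cryoablation. The tumours of cryo-thermal therapy with anti-PD-1 lay below all tumours of cryo-thermal therapy, of radiofrequency ablation with anti-PD-1 and of cryoablation, and overlapped those of radiofrequency ablation and of cryoablation with anti-PD-1. Cd4 ratios were not tested.

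**Figure D3:**
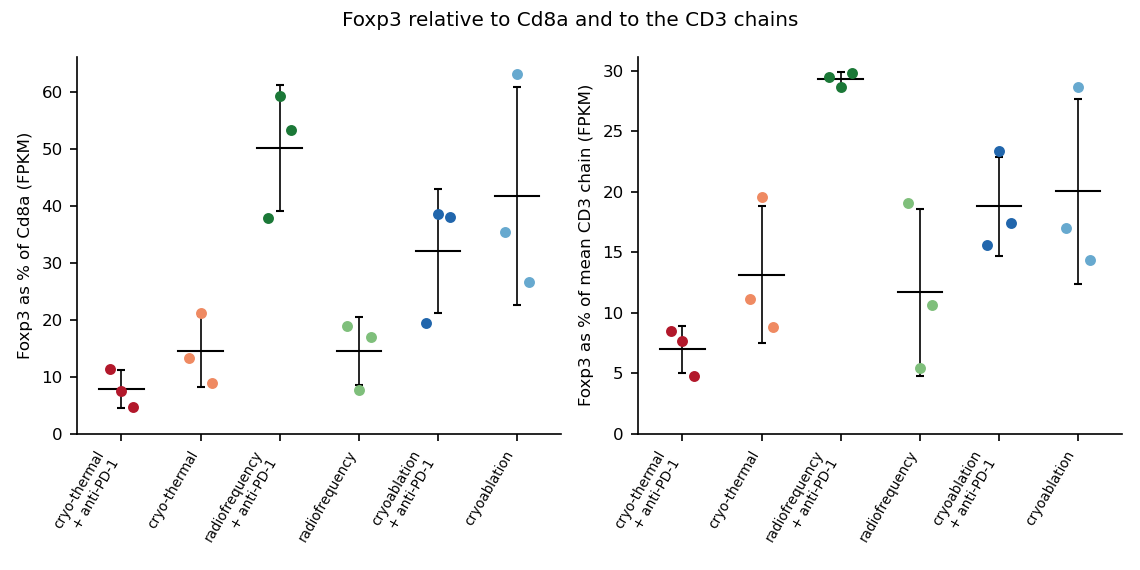
Foxp3 as a percentage of Cd8a FPKM (left) and of the mean FPKM of Cd3d, Cd3e and Cd3g (right) in each tumour of the 6 groups; lines are means and bars SD of 3 tumours. The 3 cryo-thermal therapy with anti-PD-1 tumours lie at 4.69% to 11.3% of Cd8a, below the 37.9% to 59.2% of radiofrequency ablation with anti-PD-1.

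A fit of every gene minus Cd8a in the same tumour called all 4 members different from Cd8a in cryo-thermal therapy against cryoablation and in cryo-thermal therapy with anti-PD-1 against radiofrequency ablation with anti-PD-1. It also called 98.5% and 99% of all genes there, because each difference carries Cd8a's own change and scatter, so nothing is read from those counts. On recovered fragments the same differences for Foxp3 were -1.54 ± 0.91 (adjusted p = 0.113) in the first comparison and -2.74 ± 0.62 (adjusted p = 0.00514) in the second. These carry Cd8a's change and scatter as well, so nothing is read from their adjusted p-values either.

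From tumour to tumour, 4 of the 5 members followed Cd8a, as did many other genes. Pearson's r on the log2(FPKM + 1) scale over 18 tumours was 0.65 for Foxp3 (Spearman's rho 0.64, permutation p = 0.00428 and 0.00481), 0.84 for Il2ra (rho 0.81, permutation p = 3e-05 and 6e-05), 0.81 for Ccr8 (rho 0.71, permutation p = 5e-05 and 0.00107) and 0.81 for Ikzf4 (rho 0.82, permutation p = 4e-05 and 9e-05). After adjustment over the members the permutation p-values of r were 0.00535, 8.33e-05, 8.33e-05 and 8.33e-05. Ikzf2 did not pass, at r = 0.36 (rho 0.31, permutation p = 0.136 and 0.217). Of the 15186 other genes with a mean of at least 0.1 FPKM, 10.9% had an r with Cd8a at least as high as Foxp3, 3.25% as Il2ra, 4.22% as Ccr8, 4.3% as Ikzf4 and 27.2% as Ikzf2. Without the 2 tumours farthest from the median Cd8a, both of cryo-thermal therapy with anti-PD-1, r was 0.76, 0.78, 0.73, 0.79 and 0.26 for Foxp3, Il2ra, Ccr8, Ikzf4 and Ikzf2. With group means subtracted, r was 0.74, 0.55, 0.60, 0.65 and 0.10 in the same order. Groups differ in both measures, so the pooled r joins differences between groups with those within them. The 3 tumours of cryo-thermal therapy with anti-PD-1 had less Foxp3 than 2 of the 3 tumours of cryo-thermal therapy alone.

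**Figure D4:**
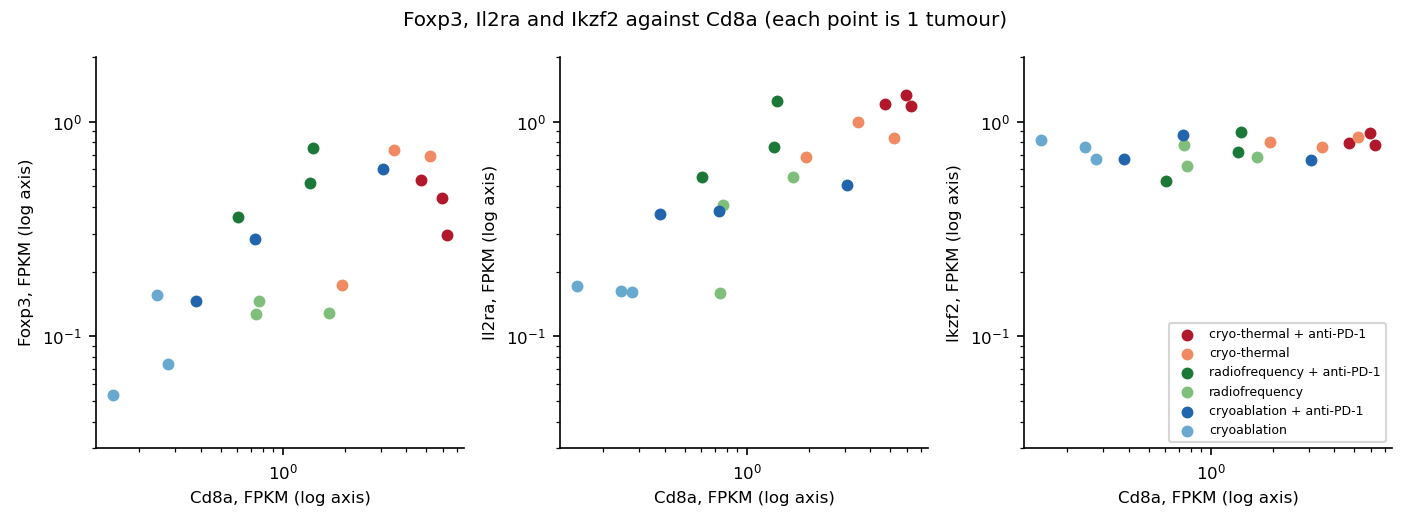
FPKM of Foxp3, Il2ra and Ikzf2 (vertical log axes) against FPKM of Cd8a (horizontal log axes) in 18 tumours, coloured by group. Foxp3 and Il2ra are higher where Cd8a is higher (r of 0.65 and 0.84 on the log2(FPKM + 1) scale), and Ikzf2 is level.

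Genes whose pattern over the 18 tumours was most like each member were taken from 11767 genes with a mean of at least 0.5 FPKM, by r on the log2(FPKM + 1) scale. For Foxp3 these were Ccr7 (0.92), a chemokine receptor of naive and central memory T cells and of mature dendritic cells, Nudc (0.88), Ccl22 (0.86), a dendritic cell chemokine, Txn2 (0.86) and Eef1d (0.86). Cd8a ranked 717 in the same order. For Il2ra they included Tgm2, Scimp, Idnk and Serpina3f, at 0.94 to 0.93, with Cd8a at rank 208. For Ccr8 they were Cndp2, Lcp1, Lcp2, Syngr2 and Slc7a8, at 0.93 to 0.92, and Lcp1 and Lcp2 encode proteins of leukocytes. Cndp2 also led for Ikzf4 (0.91), before Lilrb4a, Ch25h, Calhm6 and Batf3. Ikzf2 had no gene above 0.73, the value of Tmc8.

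Genes of the effector programme and surface of regulatory T cells were followed as a list of 20, of which 18 were tested. In cryo-thermal therapy against cryoablation 7 rose and 0 fell, where 6.95% of all genes were called higher and 5.7% lower, with a median of 0.53 on the log2(FPKM + 1) scale against 0 for all genes. Ctla4, an inhibitory receptor through which regulatory T cells act, rose by 1.61 ± 0.30 (SE, adjusted p = 0.00649). Tnfrsf18, which encodes GITR, rose by 1.34 ± 0.28 (adjusted p = 0.0104), Ebi3, a subunit of interleukin-27 and interleukin-35, by 0.85 ± 0.22 (adjusted p = 0.024), and Tnfrsf4, which encodes OX40, by 0.79 ± 0.17 (adjusted p = 0.0107). Tnfrsf1b (0.15, adjusted p = 0.402) and Tnfrsf9 (0.56, adjusted p = 0.221) did not pass. Activated conventional T cells also carry most of these proteins. In the same comparison all 7 T cell background genes passed, namely Cd8a, Cd8b1, Cd4, Cd3d, Cd3e, Cd3g and Gzmb, with a median of 1.58.

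With antibody, cryo-thermal therapy over cryoablation gave 5 of those 18 higher and 0 lower, where 2.79% of all genes were called higher and 0.599% lower, with a median of 0.64 against 0.009 for all genes. They were Lag3 (1.17 ± 0.30, adjusted p = 0.0468), the ectonucleotidases Entpd1 (0.81 ± 0.19, adjusted p = 0.033) and Nt5e (0.77 ± 0.16, adjusted p = 0.023), Havcr2 (0.71 ± 0.19, adjusted p = 0.0497) and Tnfrsf4. Lag3 and Havcr2 encode inhibitory receptors that exhausted cytotoxic T cells carry too. Over radiofrequency ablation with anti-PD-1, where 0.955% of all genes were called higher, Nt5e was the 1 that passed (1.00 ± 0.16, adjusted p = 0.0169), with a list median of 0.41. Averaged over the ablations, anti-PD-1 went with higher Ctla4 (0.71 ± 0.17, adjusted p = 0.0228) and Nt5e (0.42 ± 0.09, adjusted p = 0.0167) and lower Tnfrsf1b (-0.29 ± 0.06, adjusted p = 0.0171), where 4.17% of all genes were called higher and 3.52% lower. Mean FPKM over the series was 9.43 for Nt5e, 5.15 for Entpd1 and 24 for Tnfrsf1b, beside 0.345 for Foxp3. Nt5e did not rise in cryo-thermal therapy against cryoablation (-0.14 ± 0.16, adjusted p = 0.594). Which cells carried these RNAs was not tested.

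The receptor for interleukin-2 is completed by the chains of Il2rb and Il2rg. Of 9 genes of interleukin-2 signalling tested, these 2 rose in cryo-thermal therapy against cryoablation, Il2rb by 1.40 ± 0.31 (adjusted p = 0.0129) and Il2rg by 0.94 ± 0.17 (adjusted p = 0.00649), and 0 fell, where 6.95% of all genes were called higher. With antibody in both arms Il2rb (1.40 ± 0.31, adjusted p = 0.0302), Il2rg (0.97 ± 0.17, adjusted p = 0.0143) and Cish, a STAT5 target that dampens cytokine signals (0.63 ± 0.12, adjusted p = 0.0163), were higher over cryoablation, 3 of the 9 where 2.79% of all genes were. Cish was the 1 of the 9 that passed over radiofrequency ablation (0.52 ± 0.12, adjusted p = 0.0452), where 0.955% of all genes were called higher. Jak1 and Jak3, which encode kinases of the receptor, did not pass in cryo-thermal therapy against cryoablation (adjusted p = 0.143 and 0.656). Cytotoxic T cells and NK cells also express Il2rb and Il2rg.

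The ligands and other receptors of the chemokine axes were a list of 11, of which 7 were tested. In cryo-thermal therapy against cryoablation 4 rose and 0 fell, where 6.95% of all genes were called higher. Of these, Ccl8, a CCR8 ligand in mice, rose by 1.74 ± 0.47 (adjusted p = 0.0262), Ccl22, a ligand of CCR4, by 1.23 ± 0.29 (adjusted p = 0.0146), and Cxcr3 by 0.86 ± 0.20 (adjusted p = 0.0132). Ccl1, the other CCR8 ligand, did not pass there (0.60, adjusted p = 0.148) and was the 1 gene higher over cryoablation with antibody in both arms (1.15 ± 0.27, adjusted p = 0.0337), where 2.79% of all genes were. Averaged over the ablations, anti-PD-1 went with higher Ccl8 (1.05 ± 0.27, adjusted p = 0.0285), Ccl1 (0.62 ± 0.15, adjusted p = 0.0266) and Ccl22 (0.57 ± 0.17, adjusted p = 0.0499), where 4.17% of all genes were called higher. In that same average Ccr8 passed as well, as given above.

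Nuclear partners and regulators of FOXP3 went both ways. Of 17 tested, 1 rose and 3 fell in cryo-thermal therapy against cryoablation, where 6.95% of all genes were called higher and 5.7% lower, and the median was -0.04. Runx3, a factor of cytotoxic T cells, rose by 0.49 ± 0.12 (adjusted p = 0.016), and Nfatc2 (-0.41 ± 0.11, adjusted p = 0.0248), Nfatc1 (-0.40 ± 0.10, adjusted p = 0.0192) and Cbfb (-0.31 ± 0.09, adjusted p = 0.0411) fell. Many of these genes are expressed widely outside T cells. In the Ikaros family, Ikzf3, which encodes Aiolos, rose by 0.26 ± 0.08 (adjusted p = 0.0455) among 4 tested. Ikzf1, which encodes Ikaros, did not pass there (0.34, adjusted p = 0.0816).

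Markers of other cells that can express the members were read beside them. Type 2 innate lymphoid and T helper 2 markers, which can go with Il2ra and Ccr8, summed to 24.4 to 24.9 FPKM after cryo-thermal therapy with anti-PD-1, 13.4 to 18.2 after cryo-thermal therapy, 11.2 to 15.7 after radiofrequency ablation with anti-PD-1, 7.46 to 12.5 after radiofrequency ablation, 10.6 to 20.2 after cryoablation with anti-PD-1 and 7.13 to 10.6 after cryoablation. These sums were set mostly by 1 gene, Il1rl1, with a mean of 12.8 FPKM over the series, so they say little about the other markers. Il4 was at 0 in all tumours of both cryo-thermal groups, of radiofrequency ablation with anti-PD-1 and of cryoablation, and Il13 in all cryoablation tumours. Mature dendritic cell markers summed to between 104 and 143 FPKM in all tumours, a sum set mostly by Fscn1, with a mean of 111 FPKM. Of the 6 markers 3 rose in cryo-thermal therapy against cryoablation and 0 fell, where 6.95% of all genes were called higher and 5.7% lower. They were Ccl22 and Ebi3, given above, and Ccr7 by 1.09 ± 0.27 (adjusted p = 0.0178). Ccl22 and Ebi3 were also counted in the lists above, so these counts are not separate results. Il12b, which encodes a subunit of interleukin-12, differed by 0.40 ± 0.15 (adjusted p = 0.084), and Fscn1 by -0.10 ± 0.08 (adjusted p = 0.431). Markers of lymph node stroma and naive lymphocytes, which include Ccr7, summed to 3.7 to 16.6 FPKM after cryo-thermal therapy with anti-PD-1, 1.41 to 12.7 after cryo-thermal therapy, 1.66 to 7.73 after radiofrequency ablation with anti-PD-1, 1.2 to 3.43 after radiofrequency ablation, 2.32 to 8.18 after cryoablation with anti-PD-1 and 1.12 to 1.65 after cryoablation. The part of these cells in the members' differences was not tested.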

How the data were processed

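RNA was extracted from 18 tumours with TRIzol and silica columns with DNase treatment, and libraries were made with a VAHTS kit, per the labels' protocols. The authors deposited FPKM values; the submitters' processing notes list HTSeq 0.11.2. Aligner, genome build, annotation and strand setting are not given in the sources used here. Members and gene lists were chosen with earlier results of these data known. Genes with a mean of at least 0.1 FPKM (15187) were analysed as log2(FPKM + 1) with limma 3.58.1 in R 4.3.3, with all 18 tumours in 1 fit, a mean per group and variances that follow the level. Tests were 2-sided with Benjamini-Hochberg adjustment over all genes of each of 13 comparisons and a threshold of 0.05. The comparisons share tumours and are not independent. Relative depth was read from the steps of low values, and the smallest whole numbers of fragments that gave a gene's FPKM values were taken; voom used the 15131 genes with a mean of at least 10 fragments. The branch of the plan for count tables was not used. The fit was tested on simulated data. Changes were added there only to genes of a higher level than any member, so that test does not cover genes this scarce. Ratios were tested by exact permutation and correlations with 100000 permutations (Python 3.11.15, scipy 1.17.1, numpy 2.4.6, pandas 2.3.3, matplotlib 3.10.9). The genes named are the 5 members, Cd8a, 6 other T cell genes, up to 4 passing genes of each list by size of change and up to 2 not passing by level, and the 5 genes nearest each member, besides Tnfrsf4 with antibody, Ccr7, Fscn1 and Il12b among dendritic cell markers, named after their values were seen. Some genes that this rule names are not reported here.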

Additional observations from a re-analysis of the deposited data

How the results depend on the processing

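Members past the threshold are counts out of the 4 tested unless stated. The share of all genes called also changes with the setting and is not given here, so a changed count need not be particular to the members. For cryo-thermal therapy against cryoablation the count of 3 was 1 with a filter of 0.5 FPKM (2 members left), with no filter and with only those groups fitted, and 0 with the erythroid level or the CD3 level as covariate and without cryo-thermal therapy tumours 1 and 2. With anti-PD-1 in both arms the count of 1 was 0 with only those groups fitted, without the 3 tumours with much hair follicle RNA and with the CD3 covariate, and 2 with array weights and without cryo-thermal therapy tumours 1 and 2. For both cryo-thermal groups against the others the count of 2 was 1 with the 0.5 filter, 4 with array weights, and 0 with the CD3 covariate and without those 2 tumours. For the mean effect of anti-PD-1 the count of 2 was 1 with the 0.5 filter, no filter and the keratinocyte covariate, and 0 without the hair follicle tumours and with the erythroid or CD3 covariate. Array weights turned counts of 0 into 3 for cryo-thermal therapy against radiofrequency ablation, 1 for the same with antibody, 3 for antibody added to cryo-thermal therapy, and 1 for each difference of antibody effects. The CD3 covariate gave Foxp3 a difference of -0.058 in cryo-thermal therapy against cryoablation, the 1 reversal among 308 alternatives of 12 gene results, all of them called as reported; 230 kept direction and call and 77 lost the call. The cause was not tested.

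The labels do not say whether tumours with the same replicate number belong together. Over 45 pairs of same-numbered tumours r ran from -0.45 to 0.57 with a median of 0, and 11 were over 0.1. Of 18 tumours 8 correlated best with their own number. No pairing common to all tumours was seen, and whether some were paired was not settled. With the replicate block the mean effect of anti-PD-1 had 1 member past the threshold (Ccr8 adjusted p = 0.0603), and the other counts of members past the threshold stayed within 1.5 times.

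Counts of members that differed from Cd8a, from which nothing is read, moved as follows. With the 0.5 filter the 4 became 2 in cryo-thermal therapy against cryoablation, with antibody against either ablation, and over both cryo-thermal groups. With voom (5 members) cryo-thermal therapy had 1 against cryoablation and 0 against radiofrequency ablation, where the main count was 1; radiofrequency ablation against cryoablation, antibody added to cryoablation and the mean antibody effect had 1. Against radiofrequency ablation cryo-thermal therapy had 2 with no filter, 4 with array weights, 4 without the hair follicle tumours and 0 with the erythroid covariate, which gave 1 against cryoablation. Radiofrequency ablation against cryoablation had 2 with a pseudocount of 0.1, 3 with only those groups, 4 with array weights and 2 without the hair follicle tumours. A pseudocount of 0.1 gave 2 for cryo-thermal therapy against cryoablation with antibody, and 1, as did 0.5 and TPM scaling, for antibody added to cryoablation. Array weights gave 2 for radiofrequency against cryoablation with antibody, 1 and 4 for antibody added to radiofrequency ablation and cryo-thermal therapy, 2 for the mean antibody effect and 3 for its difference between cryo-thermal therapy and radiofrequency ablation.

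The Foxp3 to Cd8a ratio without antibody was -1.026 (exact permutation p = 0.0238) with a pseudocount of 1 FPKM. With antibody and without the hair follicle tumours it was -2.83, and the ratio to the CD3 mean -2.038, each at p = 0.133, the smallest an exact permutation test of 2 against 4 can give.

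With 1 tumour left out at a time, members past the threshold ran from 1 to 3 in cryo-thermal therapy against cryoablation, 0 to 2 against radiofrequency ablation, 0 to 1 against cryoablation with antibody, 2 to 3 over both cryo-thermal groups and 1 to 2 for the mean antibody effect. The log2 ratio of Foxp3 to Cd8a ran from -1.385 to -0.881 without antibody and from -2.583 to -2.036 with it, and that to the CD3 mean with antibody from -1.894 to -1.56, where dropping a cryo-thermal tumour leaves 0.0714 as the smallest exact permutation p.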
